A study of Mus musculus with 2 samples.

Results

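The expression of 31 genes of glycolysis and of the transcriptional response to low oxygen was followed through the cells of chemically induced mouse colon tumours. These genes were taken as a fixed list of symbols, and all 31 were found among the 32285 genes of the deposited count matrices. Of them, 17 encode glucose and lactate transporters and the enzymes of glycolysis, and 14 belong to the hypoxia response. Single-cell RNA sequencing with the 10x Genomics 3′ chemistry, which counts unique molecular identifiers (UMIs, 1 per captured transcript), had been applied to digested tumours of mice given azoxymethane and dextran sulfate sodium (AOM/DSS). The first library came from Gsk3b IEC+/+ mice and the second from Gsk3b IEC-/- mice; both carried AOM/DSS tumours. They are called the WT and the KO library here. Gsk3b encodes a serine/threonine kinase of Wnt and glycogen signalling, and IEC is the usual short form for intestinal epithelial cells; the sources used here do not name the Cre driver, strain or age, or how many animals each library holds. With 1 library per genotype there is no replicate and no test. Every difference below is a difference between these 2 libraries or between cell states within 1 library, and every interval is a 95% interval of counting error only.

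Glycolysis splits glucose into pyruvate in the cytosol and needs no oxygen, and lactate dehydrogenase then turns pyruvate into lactate, which restores the NAD+ that the pathway uses. When oxygen is scarce, prolyl hydroxylases stop marking the factor HIF-1α for destruction, and HIF-1 raises transcription of most glycolytic genes together with genes for angiogenesis, mitophagy, collagen modification and protein folding. Neutrophils hold few mitochondria and draw most of their ATP from glycolysis, and the colonic epithelium lies along an oxygen gradient that falls toward the lumen.

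HIF-1 binds a short core, ACGTG or GCGTG, and the promoters below show where these letters lie in 5 genes that the results turn on. These 5 were chosen after their values had been seen: Ero1l, P4ha1 and Bnip3 were lower in KO neutrophils, Gbe1 marked one neutrophil state, and Slc16a3 was low in that state. Each line is the strand of the gene, 5′ to 3′, from RefSeq on GRCm38.p6, 250 bases before to 50 bases after the transcript start, with every core in capitals on either strand (CACGT and CACGC are the same cores read from the other strand). The windows are chr10:59323046-59323345 on the plus strand for P4ha1, chr14:45318523-45318822 on the minus strand for Ero1l (Ero1a in RefSeq), chr7:138909457-138909756 on the minus strand for Bnip3, chr16:70313699-70313998 on the plus strand for Gbe1 and chr11:120948817-120949116 on the plus strand for Slc16a3.
P4ha1: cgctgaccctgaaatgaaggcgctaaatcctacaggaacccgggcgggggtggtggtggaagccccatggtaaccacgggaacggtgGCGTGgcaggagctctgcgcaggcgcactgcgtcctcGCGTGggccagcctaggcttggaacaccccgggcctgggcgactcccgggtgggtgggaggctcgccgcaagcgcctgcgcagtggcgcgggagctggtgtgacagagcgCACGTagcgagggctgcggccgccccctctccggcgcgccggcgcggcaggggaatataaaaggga
Ero1l: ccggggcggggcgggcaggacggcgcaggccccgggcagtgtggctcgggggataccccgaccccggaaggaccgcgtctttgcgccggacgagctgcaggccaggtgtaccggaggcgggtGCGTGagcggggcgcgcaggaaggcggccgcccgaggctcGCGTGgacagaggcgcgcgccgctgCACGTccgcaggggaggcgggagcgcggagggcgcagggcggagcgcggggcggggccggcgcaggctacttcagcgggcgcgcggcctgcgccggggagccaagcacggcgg
Bnip3: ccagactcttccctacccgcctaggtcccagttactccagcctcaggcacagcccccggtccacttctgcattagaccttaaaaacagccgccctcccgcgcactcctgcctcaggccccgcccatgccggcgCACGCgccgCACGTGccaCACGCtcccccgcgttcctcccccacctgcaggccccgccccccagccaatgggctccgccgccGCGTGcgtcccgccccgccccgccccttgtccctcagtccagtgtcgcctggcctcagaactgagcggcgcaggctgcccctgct
Gbe1: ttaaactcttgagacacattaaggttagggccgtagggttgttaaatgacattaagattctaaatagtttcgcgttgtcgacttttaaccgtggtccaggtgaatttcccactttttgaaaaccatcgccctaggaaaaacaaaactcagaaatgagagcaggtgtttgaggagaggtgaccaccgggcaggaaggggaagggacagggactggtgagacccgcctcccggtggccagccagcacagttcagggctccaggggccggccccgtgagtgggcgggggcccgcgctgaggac
Slc16a3: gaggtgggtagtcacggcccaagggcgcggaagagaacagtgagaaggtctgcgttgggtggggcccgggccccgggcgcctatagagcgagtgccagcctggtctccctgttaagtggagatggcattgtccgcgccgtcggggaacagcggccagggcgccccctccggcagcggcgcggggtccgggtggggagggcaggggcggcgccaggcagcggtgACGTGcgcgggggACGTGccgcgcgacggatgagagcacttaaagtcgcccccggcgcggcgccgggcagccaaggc
The P4ha1 and Ero1l windows each held 3 cores, Bnip3 held 5, Slc16a3 held 2 and Gbe1 held 0. In Bnip3 the palindrome CACGTG gives ACGTG on both strands and is also the E-box that bHLH factors such as Myc and Usf1 bind. RefSeq windows were matched for 28 of the 31 genes, and 25 of these 28 (89.3%) held a core in at least 1 window, against 46.7% of 27025 genes. Over single windows the share was 78.9% of 38, against 43.8% of all 32851 windows of the same length. A match is only a run of letters, and its absence from these 300 bases says nothing about the factor.

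After cell calling, 9546 cells remained in the WT library and 10349 in the KO library, of 164574326 and 156641780 deposited UMIs; 33 cell barcodes occurred in both. Neutrophils numbered 2627 and 3664, with a median of 2446 and 1852 UMIs per cell. Macrophages and monocytes numbered 1181 and 732 (median 6926 and 7248 UMIs), and epithelial cells 4357 and 4225 (median 20061 and 19403). From immunoglobulin UMIs, the share of free RNA was put at 14.9% and 17.8% in neutrophils, 11.1% and 13.1% in macrophages and 9.42% and 14.4% in epithelium. Gsk3b itself stood at 264 and 241 CPM in epithelial cells (CPM is the UMIs of a gene per 1000000 UMIs of the class or state), a log2 ratio of -0.13; the sources used here do not say which exons were deleted, and a 3′ tag outside them checks nothing. The neutrophil markers S100a8 (55141 and 31102 CPM) and Retnlg (14085 and 5116 CPM) were lower in the KO cells, and Il1r2 (1481 and 1946 CPM) was higher.

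Neutrophils were the class in which these genes differed most between the libraries. Of the 31 genes, 14 were lower by more than 1.5-fold in KO neutrophils, where 5.9% of 11652 genes with 20 or more UMIs were; none was higher by that factor, against 18.5% of genes. The median log2 ratio of KO over WT was -0.48, while the median over all genes was 0.18. Relative to that all-gene median, 19 of the 31 genes were lower by more than 1.5-fold, as were 9.89% of all genes. A further 3 small subclusters of the class were led by markers of other cells or of immature granulocytes (Cmss1 with epithelial genes, haemoglobin genes, and Camp with Ngp); without them the count was again 14 and the median -0.49. The count was 8 without doublet removal, 7 without the Gbe1/Nceh1 cells and 4 (3 of them lower) with the states weighted to the WT mix. Across all neutrophils the 6 erythroid markers summed to 3547 CPM in WT and 69.9 CPM in KO, the 12 epithelial markers to 2109 and 2713 CPM, and the 15 macrophage and monocyte markers to 5171 and 4809 CPM; apart from the subclusters left out, their part in the ratios was not tested.

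Glucose enters through Slc2a1 (GLUT1) and the high-affinity carrier Slc2a3 (GLUT3). Slc2a3 stood at 286 CPM in WT and 206 CPM in KO neutrophils, and Slc2a1 at 251 and 210 CPM. Both were lower in the KO library, but by less than 1.5-fold. Hexokinase traps glucose in the cell, and the list held 2 of its forms. Hk1 stood at 50.03 and 66.4 CPM (log2 0.41, 0.20 to 0.61) and Hk2 at 57.6 and 58.5 CPM. Hk3, a form outside the list, was above both in each library, at 65.5 and 70.7 CPM. Pfkfb3, whose product makes the activator of phosphofructokinase, was likewise above 0 on the log2 scale, at 64.8 and 77.3 CPM. The hexokinases and this activator thus did not share the direction of the later enzymes, although Hk2 lay below 0 under 6 of 14 alternative settings.

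From phosphoglucose isomerase down to lactate dehydrogenase, 9 enzymes were lower by more than 1.5-fold. Gpi1 had the lowest ratio of the 9, at 374 CPM in WT and 215 CPM in KO neutrophils (log2 -0.80, -0.90 to -0.71). Tpi1, the triose isomerase, stood at 283 and 165 CPM (log2 -0.78), and the aldolase gene Aldoa at 805 and 471 CPM (log2 -0.77). The liver-type phosphofructokinase Pfkl stood at 70.5 and 42.1 CPM, Ldha at 583 and 354 CPM, and the enolase Eno1 at 241 and 147 CPM. Gapdh, Pgk1 and Pgam1 had log2 ratios of -0.65, -0.60 and -0.60, close to the 1.5-fold limit of 0.585. Pyruvate kinase Pkm (1176 and 884 CPM), the platelet-type phosphofructokinase Pfkp (160 and 120 CPM) and the lactate exporter Slc16a3 (735 and 565 CPM) were lower by less. Gapdh, Aldoa, Pgk1, Eno1 and Ldha have processed pseudogenes, so a part of their reads may have been assigned elsewhere.

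Among the hypoxia response genes the largest gap was in Ero1l, an oxidase that forms disulfide bonds in the endoplasmic reticulum. It stood at 266 CPM in WT and 93.7 CPM in KO neutrophils (log2 -1.50, -1.64 to -1.38). P4ha1, the catalytic subunit of collagen prolyl 4-hydroxylase, stood at 84.6 and 34.2 CPM (log2 -1.30, -1.53 to -1.09). In free RNA the 2 genes stood at 68.0 and 56.3 CPM and at 28.2 and 21.4 CPM, so the KO levels of both lay less than 2-fold above free RNA. The mitophagy receptors Bnip3 (101 and 58.6 CPM) and Bnip3l (181 and 119 CPM) were also lower by more than 1.5-fold, as was the glycogen branching enzyme Gbe1 (118 and 77.8 CPM, log2 -0.60).

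The mRNA of the regulator itself did not share this direction: Hif1a stood at 269 CPM in WT and 312 CPM in KO neutrophils (log2 0.22, 0.13 to 0.31). Its feedback inhibitor Egln3, a prolyl hydroxylase, stood at 156 and 115 CPM. The secreted factors differed by less than 1.5-fold, with Vegfa at 101 and 104 CPM and Mif at 297 and 231 CPM, below its 475 and 376 CPM in free RNA. Adm, the vasodilator adrenomedullin, gave only 12 and 17 UMIs, so no difference could be detected at this depth. The mTORC1 inhibitor Ddit4 (76.4 and 71.7 CPM), Ndrg1 (52.8 and 59.0 CPM), Ankrd37 (29.1 and 30.01 CPM) and the pyruvate dehydrogenase kinase Pdk1 (10.4 and 7.47 CPM) had intervals that included 0.

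**Figure D1:**
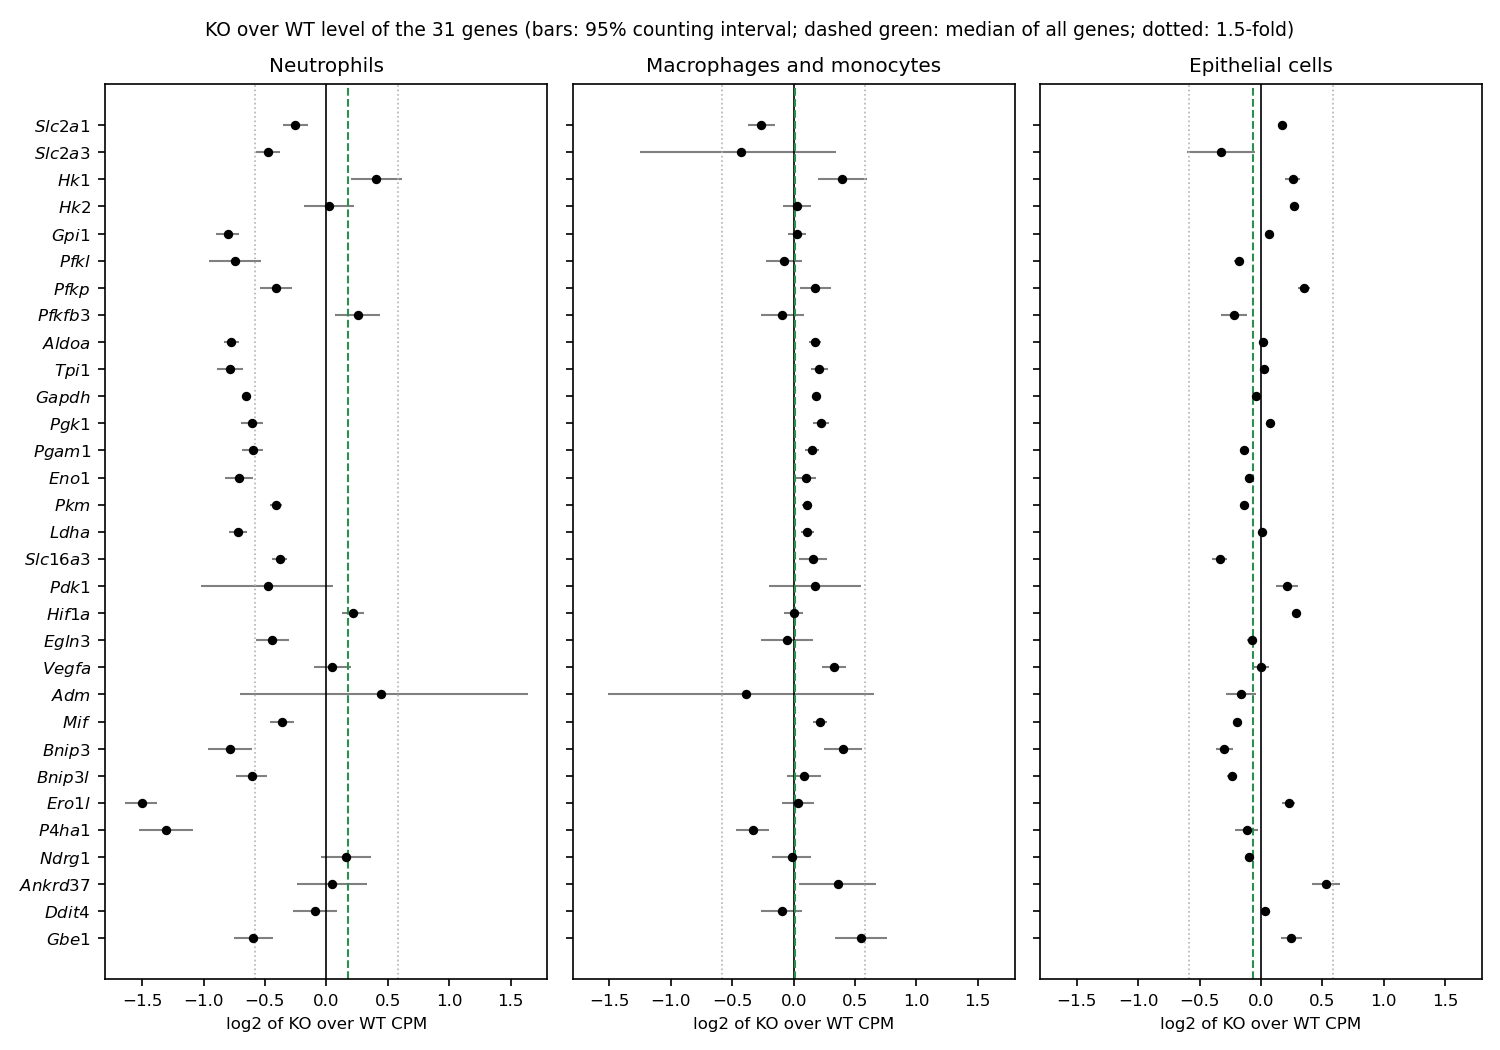
KO over WT level of each of the 31 genes (rows) on the log2 scale (x axis) in neutrophils, in macrophages and monocytes, and in epithelial cells; points are the ratio of class CPM, bars the 95% counting interval, the dashed line the median of all genes and the dotted lines 1.5-fold. In neutrophils 14 genes lie left of the lower dotted line, and in the other classes none does.

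The mix of neutrophil states differed between the libraries, and the ratio was therefore also taken within states. Neutrophils fell into 6 states of at least 50 cells in both libraries; the 31 genes and the other pathway genes had been left out of the variable genes that formed them. Cells led by Il1a and Ccl4, which resemble activated neutrophils, made up 12.1% of WT and 42.0% of KO neutrophils. Cells led by Retnlg and Mmp8, which resemble granule-rich neutrophils, made up 41.6% and 13.4%. Cells led by Icam1 and Dusp2, also activated-like, made up 7.12% and 15.5%. The others were led by Cebpd and Cxcr2 (17.1% and 11.6%), by Supv3l1 and Cadm4 (4.95% and 11.2%), and by Gbe1, Nceh1 and Hmox1 (13.2% and 4.58%).

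Of the 29 genes with 20 or more UMIs in each state, 11 lay below 0 in 6 of 6 states (3.82% of 3870 genes): Gpi1, Pfkp, Aldoa, Tpi1, Gapdh, Pgk1, Pgam1, Eno1, Ldha, Ero1l and P4ha1. Ero1l was the 1 gene lower by more than 1.5-fold in all 6 (0.336% of genes). The count of 11 takes the sign alone. Intervals included 0 for Pfkp and Eno1 in the Gbe1/Nceh1 state, Pgam1 in the Supv3l1/Cadm4 state and Tpi1 in the Cebpd/Cxcr2 state. Those of P4ha1 included 0 in the Il1a/Ccl4, Retnlg/Mmp8 and Cebpd/Cxcr2 states. Ero1l stood at 176 CPM in WT and 61.0 CPM in KO in the Il1a/Ccl4 state, at 111 and 62.5 CPM in the Retnlg/Mmp8 state, and at 118 and 54.1 CPM in the Cebpd/Cxcr2 state. It stood at 269 and 164 CPM in the Icam1/Dusp2 state, at 111 and 48.5 CPM in the Supv3l1/Cadm4 state, and at 1285 and 484 CPM in the Gbe1/Nceh1 state. The KO value was the lower of the pair in each state, but in the Cebpd/Cxcr2 and Supv3l1/Cadm4 states it lay below the 56.3 CPM of KO free RNA, so the size of the ratio there is uncertain. Hif1a was above 0 in 4 of 6 states, with its widest gap in the Retnlg/Mmp8 state (314 and 492 CPM, log2 0.65).

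The number of genes lower by more than 1.5-fold differed from state to state. It was 17 of 29 in the Icam1/Dusp2 state (9.83% of all genes), 8 of 29 in the Il1a/Ccl4 state (5.71%), 8 of 29 in the Supv3l1/Cadm4 state (6.7%), 7 of 30 in the Gbe1/Nceh1 state (17.1%), 5 of 30 in the Retnlg/Mmp8 state (9.51%) and 2 of 29 in the Cebpd/Cxcr2 state (6.93%). In the Icam1/Dusp2 state Tpi1 stood at 430 and 176 CPM (log2 -1.29, -1.59 to -0.98), Gapdh at 3384 and 1794 CPM, and Mif at 593 and 298 CPM. In the same state Gbe1 went the other way, at 52.8 and 109 CPM (log2 1.04, 0.38 to 1.77). When the KO states were weighted to the WT mix, Ero1l (-1.21), P4ha1 (-1.04) and Ldha (-0.61) remained lower by more than 1.5-fold, and Gpi1, Aldoa and Gapdh came to -0.47. Under this weighting 3 genes were lower by that factor in place of 14, the median was -0.35, and Adm, with its few UMIs, was higher (1.05).

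The Gbe1/Nceh1 neutrophils held 347 WT and 168 KO cells and were set apart by most of the 31 genes. Their other leading genes were the haem oxygenase Hmox1, the lysosomal genes Lipa, Psap and Creg1, and the ferritin gene Ftl1. Compared with the other neutrophils of the same library, 20 of 30 genes were higher by more than 1.5-fold in WT (34.5% of all genes) and 20 of 30 in KO (25.9%), and 18 were so in both. The median log2 ratio was 1.02 in WT and 1.03 in KO, against 0.25 and -0.01 over all genes. Since a state is cut from the same cells, these are descriptions without a test.

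Gbe1, which adds branches to glycogen, stood at 743 CPM in these cells and 37.0 CPM in the other WT neutrophils (log2 4.33, 4.10 to 4.56). In KO it stood at 643 and 50.9 CPM (log2 3.66, 3.40 to 3.91). Of all Gbe1 UMIs in WT neutrophils 72.1% came from this state, which held 11.4% of the class UMIs; in KO 37.5% came from the state, which held 4.54%. Within the state the 2 libraries were close for Gbe1, with a log2 ratio of -0.21 (-0.45 to 0.02). Without the state, Gbe1 was higher in KO than in WT neutrophils, at a log2 of 0.46, the reverse of the ratio in the class as a whole.

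P4ha1 stood at 443 CPM in the state against 38.5 CPM outside it in WT, and at 177 against 27.5 CPM in KO. Ero1l stood at 1285 against 135 CPM in WT and at 484 against 75.1 CPM in KO. Both were thus high in the state in either library and lower in KO inside and outside it. Outside the state P4ha1 lay near the free RNA levels given above, so the size of its ratio there is uncertain. Mif, a cytokine with tautomerase activity, stood at 1059 against 199 CPM in WT and at 692 against 209 CPM in KO. Tpi1 (922 against 201 CPM in WT, 559 against 146 CPM in KO), Pgam1 (1077 against 332 CPM, 938 against 244 CPM) and Bnip3 (297 against 75.6 CPM, 242 against 49.9 CPM) followed the same order. So did Bnip3l, at 580 against 130 CPM in WT and 292 against 111 CPM in KO.

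The 3 transporters differed. Slc16a3, the lactate exporter MCT4, stood at 267 CPM in the Gbe1/Nceh1 cells and 795 CPM in the other WT neutrophils (log2 -1.57, -1.78 to -1.37), and at 301 and 578 CPM in KO. It was the only 1 of the 31 genes lower by more than 1.5-fold in both libraries; in WT 2 genes were (19.5% of all genes) and in KO 1 was (28.4%). Slc2a3 was the other in WT, at 118 against 308 CPM, and stood at 140 against 209 CPM in KO. The other glucose carrier, Slc2a1, was level in WT, at 261 against 249 CPM, and higher in KO by less than 1.5-fold, at 286 against 207 CPM (log2 0.47, 0.15 to 0.77). Hif1a was not higher in the state either, at 213 against 276 CPM in WT and 276 against 314 CPM in KO. Most glycolysis enzymes and hypoxia targets were thus higher in these cells, while Slc16a3, Slc2a3 and Hif1a were not.

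**Figure D2:**
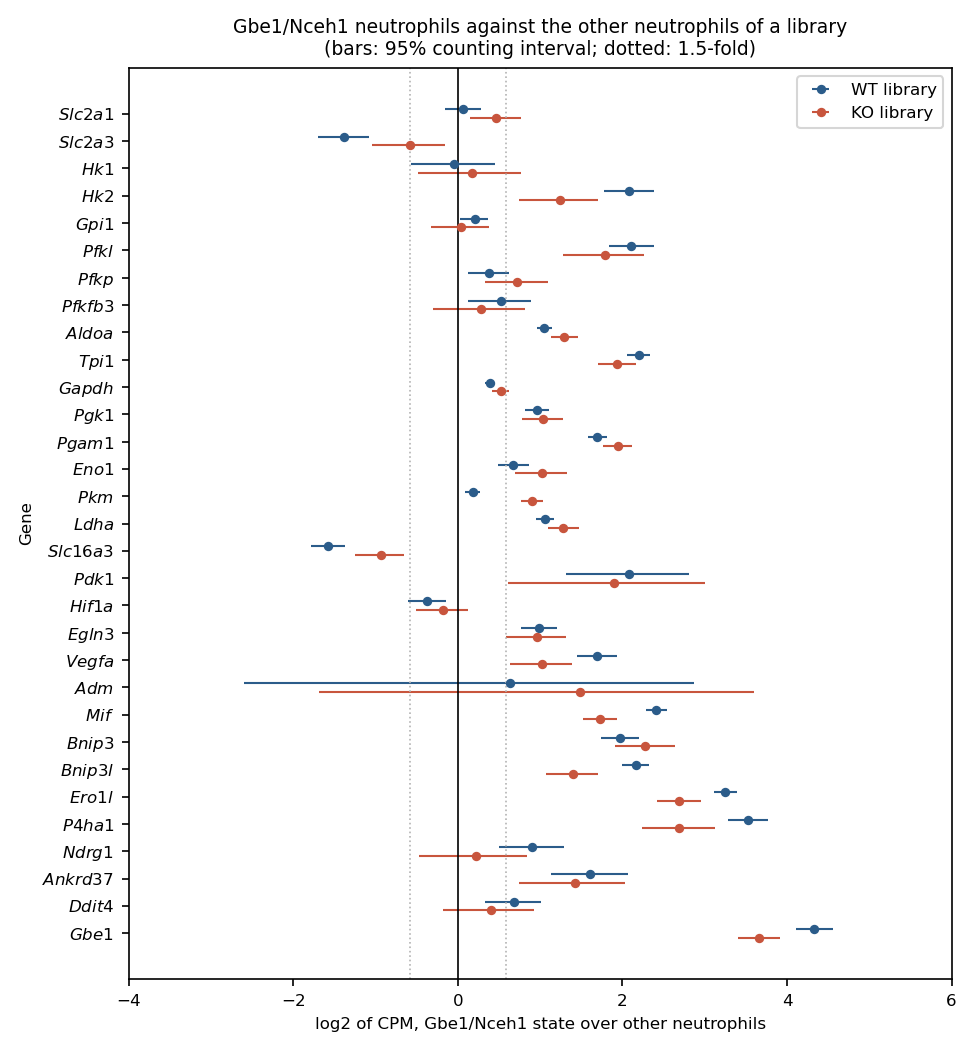
Level of each of the 31 genes (rows) in the Gbe1/Nceh1 neutrophils over the other neutrophils of the same library, as log2 of CPM (x axis), in the WT and the KO library; bars are 95% counting intervals and dotted lines 1.5-fold. Gbe1 lies farthest right at 4.33 and 3.66, and Slc16a3 lies left of 0 in both libraries.

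Markers of other cell types were measured in the same cells. The 15 macrophage and monocyte markers summed to 3083 CPM in the Gbe1/Nceh1 cells of WT (2 markers at 0) and 2745 CPM in KO (4 at 0), below the 4607 to 6559 CPM and 3800 to 5690 CPM of the other 5 states. The 12 epithelial markers summed to 2253 and 2686 CPM, within 2000 to 2253 and 2409 to 2931 CPM across the 6 states. Median UMIs per cell were 2047 and 1824. The share of cells with a Gbe1 UMI, after thinning each cell to 1000 UMIs, was 27.2% of 323 WT cells and 28.4% of 155 KO cells (37.2% and 35.5% unthinned), against 1.91% and 2.68% of epithelial cells thinned alike. For Ero1l the shares were 48.0% and 32.9%, against 5.90% and 6.07% of epithelial cells (unthinned, 64.7% and 44.5% against 54.8% and 57.8%, at the greater depth of the epithelial cells).

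**Figure D3:**
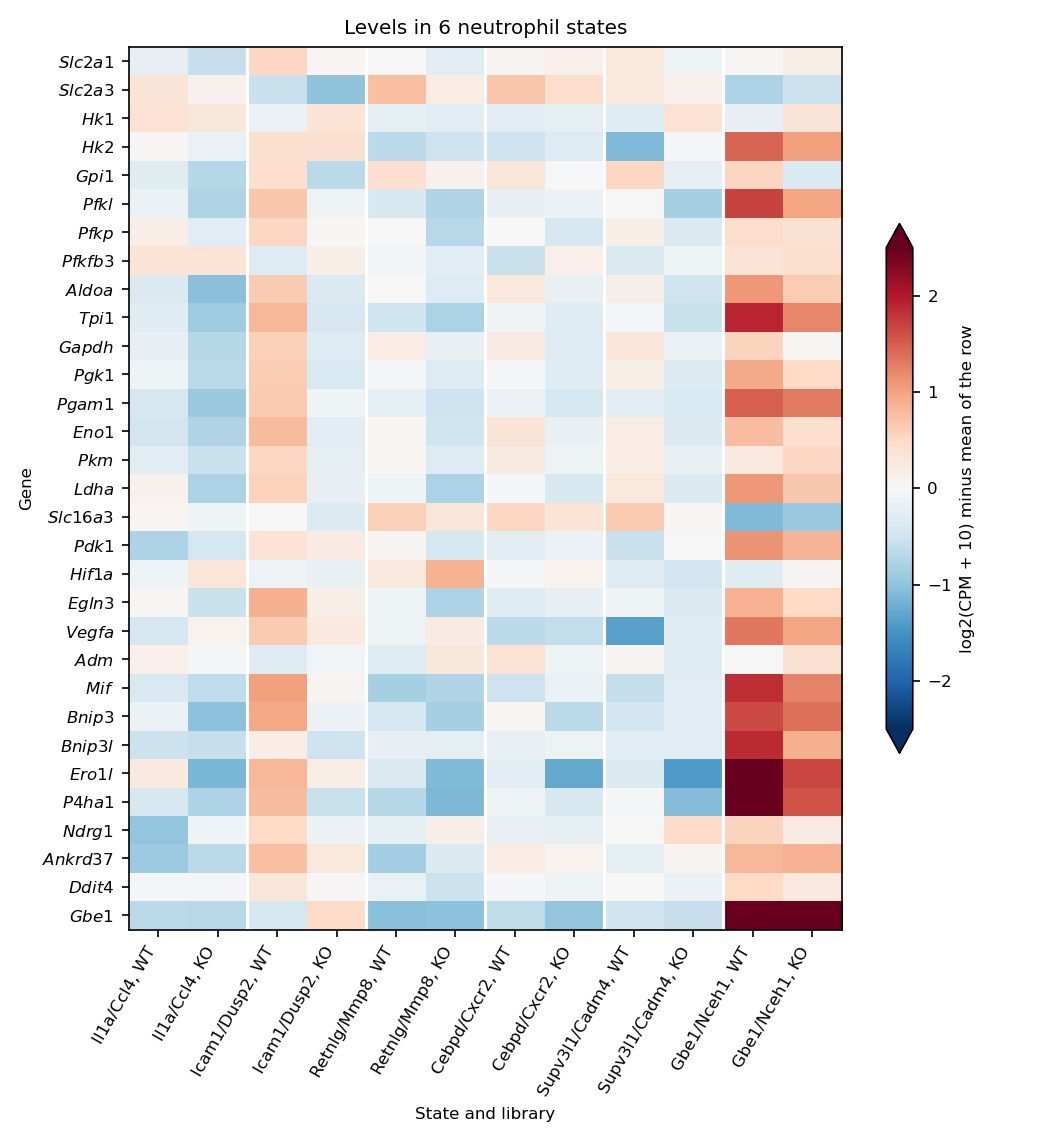
Level of each of the 31 genes (rows) in the 6 neutrophil states of each library (columns, WT then KO), as log2 of CPM plus 10, with the mean of the row taken off; colours stop at 2.5. The 2 columns of the Gbe1/Nceh1 state carry the highest level of 17 genes in both libraries. This count was not made over all genes, of which 34.5% in WT and 25.9% in KO were higher by more than 1.5-fold in the state.

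Summed over the 17 glycolysis genes, the level ran from 6621 CPM in the Il1a/Ccl4 state to 11978 CPM in the Gbe1/Nceh1 state in WT, and from 4842 to 9619 CPM between the same states in KO. The Icam1/Dusp2 cells were the second highest in WT (10712 CPM) but not in KO (6083 CPM). The 14 hypoxia genes summed to 5467 and 3490 CPM in the Gbe1/Nceh1 state, 2320 and 1490 CPM in the Icam1/Dusp2 state, and 1122 to 1291 CPM in the other 4. The 4 others were therefore close to one another in the hypoxia genes, in either library. They were also close to free RNA, where the same sum was 1339 CPM in WT and 1190 CPM in KO. The part of free RNA in this likeness was not tested. Per cell, thinned to 1000 UMIs, the median WT neutrophil carried 8 glycolysis UMIs and the median KO neutrophil 5. In the Gbe1/Nceh1 state the medians were 11 and 8, with the 10th to 90th percentile at 4 to 23 and 3 to 17, so cells of one state spread widely.

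Isoform pairs shifted with the state as well. Hk2 made up 53.5% of the Hk1 and Hk2 UMIs of WT neutrophils and 46.8% of those of KO, with Hk3 not counted. In the Gbe1/Nceh1 state it made up 78.5% (71.7% to 84.3%) and 63.6% (50.9% to 75.1%). In macrophages the Hk2 share was 77.2% and 72.4%, and in epithelium 79.8% and 79.9%. Slc2a3 made up 53.3% and 49.4% of the Slc2a1 and Slc2a3 UMIs in neutrophils but 2.24% and 2.0% in macrophages and 1.64% and 1.17% in epithelium. The 2 carriers thus separated neutrophils from macrophages and epithelium, the only classes compared here. In the latter classes Slc2a3 stood at 1.998 to 4.31 CPM, below the 16.3 CPM of free RNA in either library.

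In macrophages and monocytes the genes hardly differed between the libraries. None of the 31 was higher or lower by more than 1.5-fold, against 6.03% and 7.72% of 12783 genes, and the median log2 ratio was 0.11 against 0.01 over all genes. Gbe1 came closest, at 36.3 and 53.1 CPM (log2 0.55, 0.33 to 0.76), in the direction opposite to that in neutrophils. Bnip3 (73.6 and 97.1 CPM), Hk1 (45.01 and 59.3 CPM) and Vegfa (181 and 227 CPM) were also above 0 with their intervals. P4ha1 (131 and 104 CPM) and Slc2a1 (189 and 157 CPM) were below 0. Of the 1370 P4ha1 UMIs in WT, 447 came from a state led by Hspa1b, with 146 WT and 42 KO cells. Over the 4 states with at least 50 cells in both libraries, weighted to the WT mix, P4ha1 came to -0.05 and Slc2a1 to -0.34. Hif1a was the same to 3 digits, at 343 and 343 CPM. The 17 glycolysis genes summed to 8182 and 9017 CPM.

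Within this class the states carried different parts of the program. In cells led by Ccl24 and Dcstamp (274 WT and 240 KO cells), 15 of 31 genes were higher by more than 1.5-fold than in the other cells of the class in WT (7.24% of all genes), and 3 of 30 in KO (8.81%). Pfkp, Vegfa and Ndrg1 were the 3 that were so in both. Vegfa, the main angiogenic factor, stood at 364 against 134 CPM in WT (log2 1.44) and 423 against 154 CPM in KO (log2 1.46). Vegfa thus differed by a like amount in both. The cells compared with were not alike in the 2 libraries: the Ifitm6/Ly6c2 and Hspa1b-led states, with the lowest glycolysis sums in WT (5502 and 3969 CPM), made up 21.2% and 12.4% of the class in WT but 9.97% and 5.74% in KO. Tpi1, higher in WT only, stood at 336 CPM in those other cells in WT and 434 CPM in KO. In the Ccl24/Dcstamp cells themselves it stood at 531 and 433 CPM, so both sides of the ratio differed. The part of the state mix in these calls was not tested. Within the Ccl24/Dcstamp cells the median log2 ratio of KO over WT was -0.19, against 0.04 over all genes. In this contrast 1 gene was lower by that factor in WT (20.5% of all genes) and 1 in KO (15.8%).

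Cells led by Gpnmb and Mfge8, which carry complement C1q markers (209 and 152 cells), carried less Hif1a. There, 7 genes were lower by more than 1.5-fold in WT (14.4% of all genes) and 9 in KO (14.8%); Hk1, Pfkp, Pfkfb3, Hif1a, Ero1l, Ndrg1 and Ddit4 were lower in both. A further 5 were higher in WT (18.1%) and 2 in KO (22.7%), a share near or below the background. Hif1a stood at 224 CPM against 411 CPM in the other cells in WT and at 193 against 456 CPM in KO. The enzymes did not share this: Aldoa (969 and 958 CPM) and Gapdh (3498 and 3557 CPM) in these cells were near the levels of the Ccl24/Dcstamp cells (940 and 909 CPM; 3737 and 3564 CPM). Monocyte-like cells led by Csf3 and Serpinb2 carried high Hif1a (566 and 592 CPM) and the highest Ero1l of the class (266 and 277 CPM). Those led by Ifitm6 and Ly6c2 had like Hif1a (581 and 547 CPM) but only 79.0 and 47.8 CPM of Ero1l and the lowest glycolysis sum of the 4 states (5502 and 5873 CPM).

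In epithelial cells, where the gene is labelled as deleted, none of the 31 genes was higher or lower by more than 1.5-fold, against 7.0% and 11.6% of 18555 genes. The median log2 ratio was 0.00 and that of all genes -0.07. The HIF target Ankrd37 (10.6 and 15.3 CPM, log2 0.53) had the widest gap. Pfkp (71.9 and 91.7 CPM, log2 0.35), Hif1a (140 and 170 CPM, log2 0.28) and Hk2 (149 and 179 CPM, log2 0.27) were above 0, although Hk2 was at -0.04 under 1 of 12 alternatives. Slc16a3 (54.5 and 43.2 CPM, log2 -0.34) and Bnip3 (36.3 and 29.5 CPM, log2 -0.30) were below it. Counting intervals in this deep class were narrow, and 28 of the 31 excluded 0, but they do not measure the spread between animals. Gapdh stood at 2115 and 2056 CPM.

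Differences between epithelial states were larger than those between the libraries. Cells led by Lypd8 and Clca4b, absorptive-like cells with Car1 and Saa1 (222 WT and 281 KO cells), had 22 of 31 genes higher by more than 1.5-fold than the other epithelial cells in WT (12.5% of all genes) and 20 in KO (12.8%). Of these, 19 were higher in both libraries. The median log2 ratio was 1.02 and 0.79, whereas that of all genes was -0.72 and -0.58. One gene was lower by that factor in WT and 3 in KO, where 54.9% and 49.7% of all genes were.

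Egln3 had the largest gap in this state, at 395 against 77.4 CPM in WT (log2 2.35) and 308 against 75.6 CPM in KO (log2 2.03). Hk2 stood at 532 against 121 CPM and at 445 against 156 CPM. Hif1a stood at 389 against 122 CPM and 459 against 145 CPM. Its mRNA was thus higher here along with most of the 31 genes, unlike in the Gbe1/Nceh1 neutrophils. HIF-1α protein was not measured. Gapdh stood at 3955 against 1981 CPM and 3357 against 1944 CPM, and Ero1l at 174 against 50.3 CPM and 111 against 65.0 CPM. Gbe1, which led the neutrophil state, was lower in these cells, at 9.09 against 21.6 CPM in WT and 14.2 against 25.5 CPM in KO. Mif (299 against 432 CPM, 265 against 378 CPM) and Vegfa (30.6 against 40.5 CPM, 23.3 against 41.3 CPM) were also below the other cells, and P4ha1 was level with them (22.4 against 20.1 CPM, 19.1 against 18.7 CPM). Ddit4 was lower by more than 1.5-fold in KO only, at 121 CPM in these cells. Median mitochondrial UMIs were 7.01% in this state, above every other epithelial state except the 2 of lowest depth (15.6% and 16.9%).

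**Figure D4:**
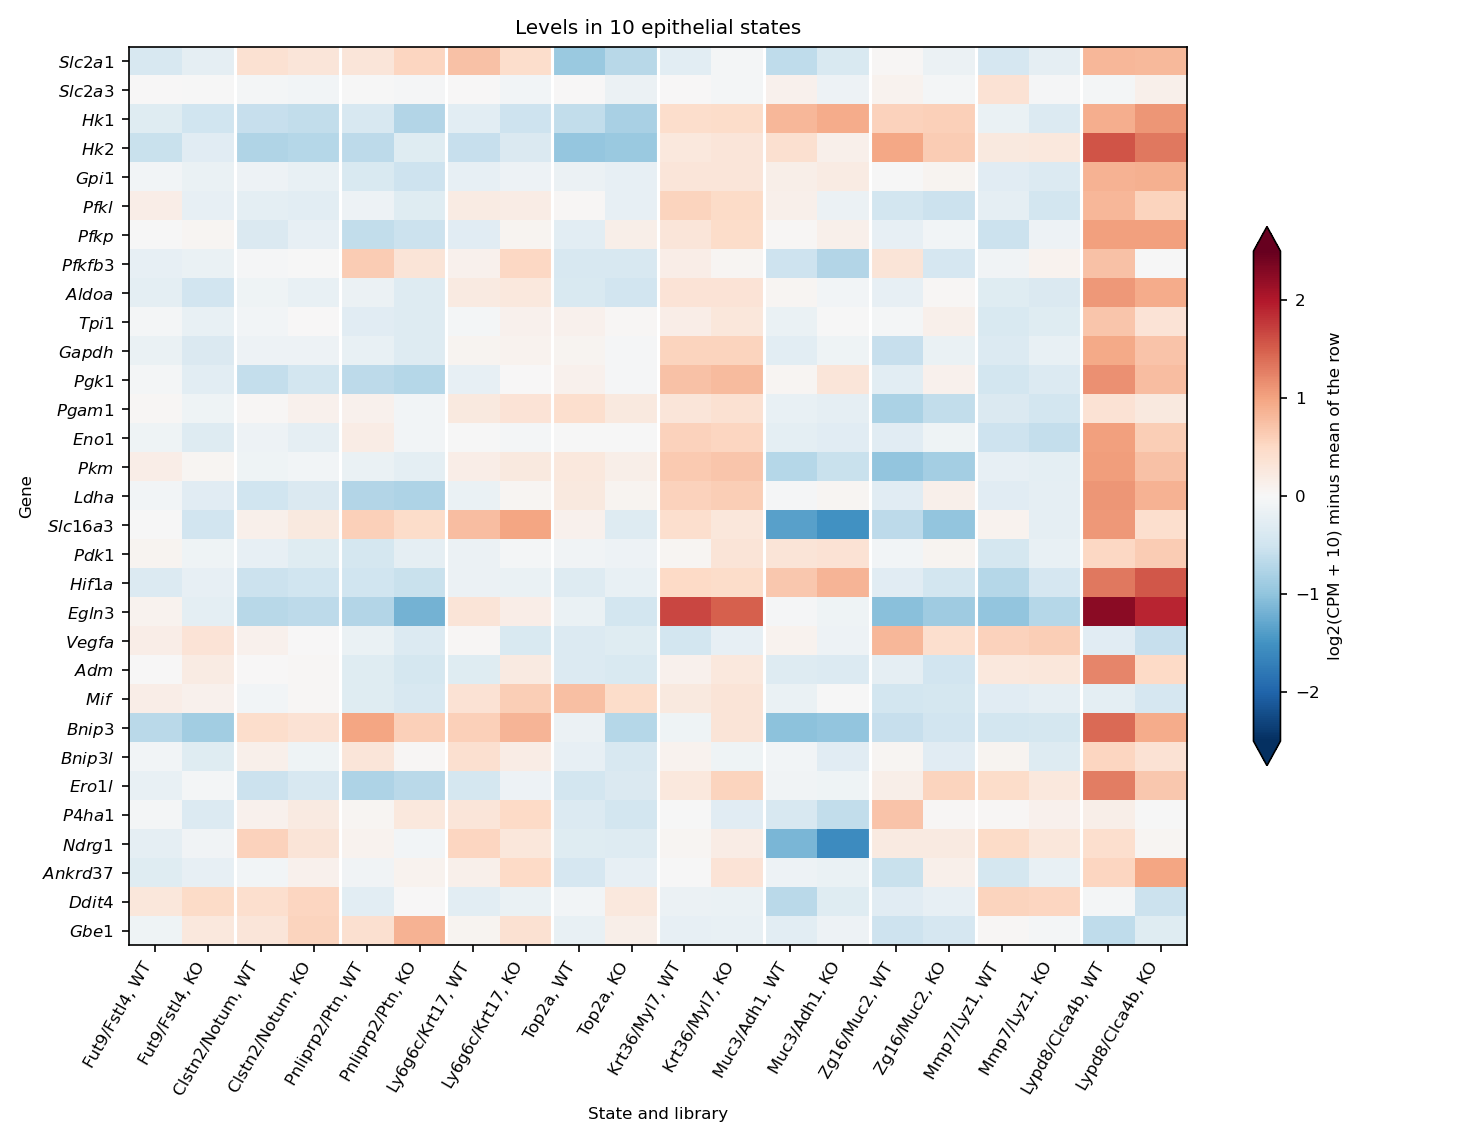
Level of each of the 31 genes (rows) in 10 epithelial states of each library (columns, WT then KO), as log2 of CPM plus 10, with the mean of the row taken off. The last pair of columns, the Lypd8/Clca4b cells, is high for most rows and low for Gbe1, Mif and Vegfa.

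Among the other epithelial states the glycolysis sum was 8101 and 8248 CPM in cells led by Krt36 and Myl7, against 11505 and 9780 CPM in the Lypd8/Clca4b cells. It was 5102 and 5178 CPM in cells led by Clstn2 and Notum, 4903 and 4586 CPM in those led by Pnliprp2 and Ptn, and 5901 and 5489 CPM in cycling-like cells led by Top2a. A low-UMI state led by Mt4 and Mt3 (78 and 59 cells) stood at 9285 and 8179 CPM, above the Krt36/Myl7 cells in WT and below them in KO. No epithelial state list named these cells, and their best match over all marker lists was neutrophils (3 markers). Their median mitochondrial share was 1.29%, so their place among epithelial cells is uncertain. Goblet-like cells led by Zg16 carried Hk2 at 345 and 274 CPM and Slc16a3 at 23.2 and 16.6 CPM. Among states of at least 50 cells the lowest Slc16a3 was in cells led by Muc3 and Adh1 (10.4 and 8.45 CPM), which held high Hif1a (243 and 275 CPM) and low Bnip3 (7.55 and 8.08 CPM). A low-UMI state with absorptive markers (186 and 109 cells, median 1099 and 1193 UMIs, 15.6% mitochondrial) had the highest Hk2, at 1031 and 519 CPM. Of the 13 states compared it also had the highest Egln3, at 461 and 443 CPM. The Lypd8/Clca4b cells came next for Egln3, at 395 and 308 CPM. Vegfa, low in the Lypd8/Clca4b cells, stood at 135 and 222 CPM in the low-UMI state. The part of its low depth in these levels was not tested. Cells led by Gkn3 and Cadps numbered 645 in WT and 12 in KO, too few to compare; in WT their glycolysis sum was 5551 CPM.

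**Figure D5:**
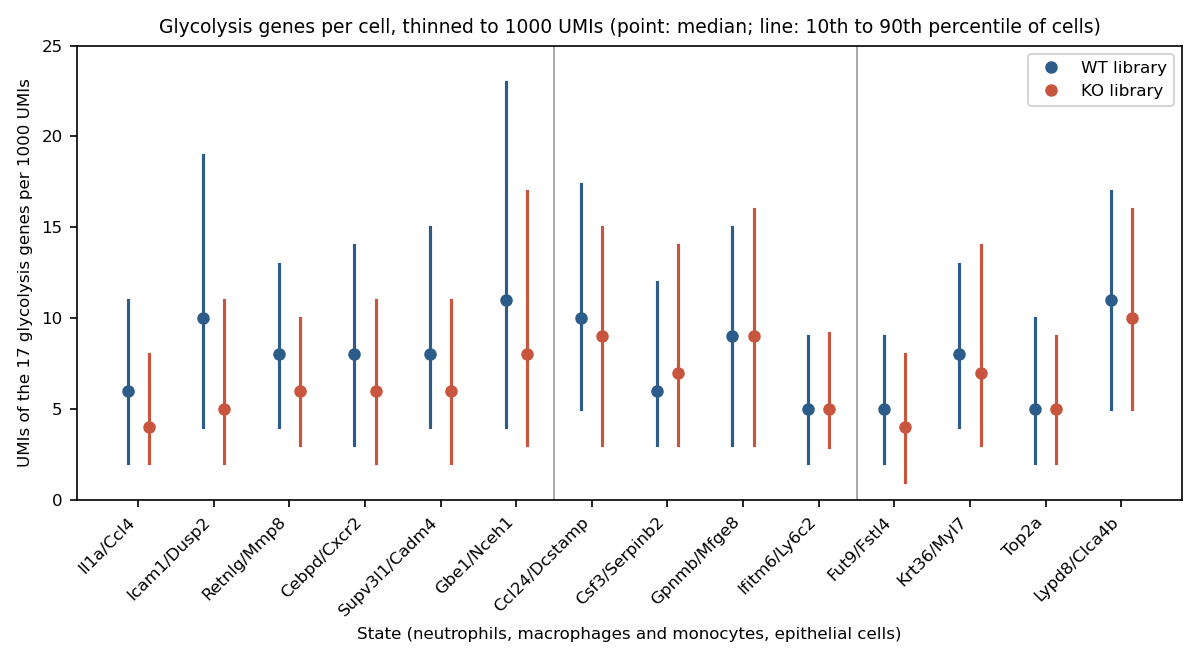
UMIs of the 17 glycolysis genes per cell (y axis) after thinning each cell to 1000 UMIs, in states of neutrophils, of macrophages and monocytes, and of epithelial cells (x axis); points are medians and lines run from the 10th to the 90th percentile of cells. The Icam1/Dusp2 neutrophils have the widest gap between the libraries, at 10 and 5, and the Lypd8/Clca4b cells lie at 11 and 10.

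Set side by side, 8 of the 31 genes were highest in neutrophils among the 3 classes in both libraries, 10 in macrophages and monocytes and 4 in epithelial cells. In WT alone 14 genes were highest in neutrophils and in KO 9. The same counts were not made over all genes, so they describe the 31 genes alone. The glycolysis sum was 8512 CPM in WT neutrophils, 8182 CPM in WT macrophages and 5951 CPM in WT epithelium; in KO it was 5746, 9017 and 5870 CPM. The first 2 of these exchanged order between the libraries. In free RNA it was 6404 and 5704 CPM.

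Other genes of the pathway came from 7 further lists of 115 genes. In neutrophils the pentose phosphate pathway, which branches from glycolysis to make NADPH, had 8 of 8 genes with 20 or more UMIs below 0 (32.7% of all genes), and 2 of them, Tkt (191 and 121 CPM) and G6pdx (28.4 and 12.3 CPM, log2 -1.21), were lower by more than 1.5-fold. In glycogen metabolism 3 of 13 were lower and 3 higher by that factor, where 5.9% and 18.5% of all genes were. The primer Gyg (112 and 38.9 CPM, log2 -1.52), Pgm1 (24.7 and 9.72 CPM) and the phosphorylase Pygl (213 and 139 CPM) were lower, and Phkg2, a phosphorylase kinase subunit, was higher (10.8 and 16.9 CPM, log2 0.64). Among further glycolysis genes Adpgk, an ADP-dependent glucokinase, stood at 49.7 and 6.76 CPM (log2 -2.88, -3.35 to -2.44); it was also among the leading genes of the Camp/Ngp subcluster, which held 49 WT and 3 KO cells. Hk3, the hexokinase of myeloid cells, stood at 65.5 and 70.7 CPM.

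Of 28 other HIF targets, 5 were higher by more than 1.5-fold in KO neutrophils and 3 lower, against 18.5% and 5.9% of all genes. Below 0 lay 19 of the 28, and their median log2 ratio was -0.12, against 0.18 over all genes. Cxcr4, a chemokine receptor (53.3 and 137 CPM, log2 1.36), and Bhlhe40, a transcriptional repressor (111 and 212 CPM, log2 0.93), were higher, and Mxi1 (128 and 83.1 CPM) was lower. Hilpda (483 and 323 CPM, log2 -0.58), Hmox1 (561 and 378 CPM, log2 -0.57) and the lipid droplet gene Plin2 (530 and 400 CPM) were below 0 by less. Oxygen sensing had 1 of 10 higher and 1 lower, the latter being the prolyl hydroxylase Egln1 (25.2 and 16.6 CPM). In macrophages 5 of 31 such targets with 20 or more UMIs were higher by more than 1.5-fold (6.03% of all genes) and 0 lower (7.72%). Among the 5 were Hmox1 (698 and 1138 CPM, log2 0.70, 0.66 to 0.75), Cxcr4 (45.01 and 80.5 CPM) and Nos2 (log2 1.05, 0.71 to 1.40). In epithelium 4 of 36 such targets were higher and 2 lower by that factor, against 7.0% and 11.6% of all genes. Stc2 (4.45 and 7.39 CPM, log2 0.73) and Cxcr4 (1.99 and 3.47 CPM, log2 0.80) were among those higher, and P4ha2 (12.3 and 8.13 CPM) among those lower. Free RNA was put at 9.42% and 14.4% of epithelial UMIs, and its part in the low Cxcr4 levels was not tested. From other lists, the monocarboxylate carrier Slc16a1 (23.4 and 37.0 CPM, log2 0.66) was the 1 of 20 glycolysis genes that was higher, and 2 were lower. The gluconeogenic Pck1 (2.16 and 6.27 CPM, log2 1.54) was among 2 of 6 higher, with 0 lower.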

How the data were processed

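The authors deposited 10x count matrices of UMIs per gene and barcode, with no cells removed; they are raw counts, made by Cell Ranger 4 per the file headers, and the submitters' processing notes name mm10 and Seurat. Barcodes with at least 500 UMIs were tested against the profile of barcodes under 100 UMIs (10000 draws, false discovery rate 0.001). Cells over 25% mitochondrial UMIs or under 200 genes and called doublets (0.8% per 1000 cells) were removed. Cells were clustered with scanpy 1.11.5 and Leiden 0.10.2 (resolution 1 for classes, 0.6 for states) on 2000 variable genes without the 31 genes and the other pathway genes, and named from marker lists. UMIs were summed per class or state and divided by its total (CPM); log2 ratios carry exact binomial intervals and levels Poisson ones, at 95%. These intervals were tested on data simulated with counting error alone, so that test does not cover spread between cells or animals. A gene needed 20 UMIs and a state 50 cells. The 2 features named Aldoa were summed.

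The 31 genes and the lists were chosen with earlier results of these data known. All 31 are named; from the other lists, per class, up to 4 genes beyond 1.5-fold with the most UMIs and up to 4 with the highest CPM could be named. Samples were grouped by title, with 1 library per group. Alternatives covered cell calling, filters, resolution, scaling, free RNA, thinning and state mix; 2 that leave out neutrophil states, and the repeat of the state comparisons, were added after seeing the data.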

Additional observations from a re-analysis of the deposited data

How the results depend on the processing

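No paired analysis was possible because each genotype has 1 library, and no replicate could be left out. In neutrophils the median log2 ratio of KO over WT stayed below 0 under 14 alternatives (16 with the 2 chosen after seeing the data), from -0.35 to -0.66; the latter came with median-of-ratios scaling, which takes off the shift of all genes. The count of 14 genes beyond 1.5-fold became 8 without doublet removal, 4 with states weighted to the WT mix and 7 without the Gbe1/Nceh1 state, where Gbe1 reversed to 0.46; in the other alternatives it was 12 to 19. In macrophages the median became -0.022 with states weighted to the WT mix, and the count of 0 became 1 there, 3 with free RNA subtracted and 3 with cells thinned to 1000 UMIs. In epithelium the median became 0.067 with median-of-ratios scaling (count 1), -0.044 as a mean over cells, -0.058 with thinned cells and -0.086 with states weighted to the WT mix. The median of the Gbe1/Nceh1 state over other neutrophils was 1.00 to 1.05 in WT and 0.80 to 1.06 in KO under 6 alternatives. For the Lypd8/Clca4b state in WT it became 0.78 at a mitochondrial limit of 10%, 0.75 without doublet removal and 0.79 with the pathway genes among the variable genes. The matched state held 763, 1012 and 917 cells in these settings, WT and KO together, against the 503 described above. Of those 503 cells, 363, 500 and 501 were in it. The cause of the shifts in medians and counts was not tested. Low depth limits Adm, Pdk1 and Slc2a3 outside neutrophils.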
